A study of Homo sapiens with 4 samples.

Results

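Histone-modifying enzymes are described here as 34 named genes measured by 41 probes, out of 12208 named genes and 29640 probes that were not controls. The genes were chosen by name, from the platform's gene symbols with older names allowed (for example GCN5L2 for KAT2A and AOF2 for KDM1A). They hold 4 class I histone deacetylases, 4 of class IIa, 2 of class IIb and 1 of class IV, 6 sirtuins, 4 acetyltransferases, 4 genes of Polycomb repressive complex 2, 5 methyltransferases of histone H3 lysine 9 (H3K9), 1 of lysine 4 (H3K4) and 3 demethylases. Of the genes, 27 had 1 probe and 7 had 2.

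The study compared treated and untreated cells of 2 colorectal cancer lines, DLD-1 and HT-29, to search for genes raised by a demethylating drug. Treated cells were plated, grown for 24 h and then exposed for 96 h to 1 µM 5-aza-2'-deoxycytidine, and the other RNA on each array was labelled only as that of the same cell line. Each line had 2 two-colour oligonucleotide arrays, 1 for each dye orientation, so 4 arrays in all, called array 1 and array 2 (dyes exchanged) here. Nothing in the labels says that cultures were separate, so both arrays of a line counted together as 1 replicate. The p-values rest on the spread between the 2 line means and on the variance shared across genes. They do not measure the spread between the arrays of a line or between cultures.

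Histone acetyltransferases and deacetylases add and remove acetyl groups on histone tails, and lysine methyltransferases and demethylases do the same for methyl groups. Acetylation and H3K4 methylation mark active promoters, whereas H3K9 methylation and the H3K27 methylation laid down by Polycomb repressive complex 2 mark silent ones. 5-aza-2'-deoxycytidine is built into DNA and traps DNA methyltransferases, so that CpG methylation is lost as cells divide. Deacetylases and H3K9 methyltransferases are recruited to methylated DNA by methyl-CpG-binding proteins.

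Array 1 of each line held treated RNA in channel 2. On the dye-exchanged arrays the scanner columns name no dye, and the labels list treated RNA as channel 1. All 4 arrays were read with treated RNA in channel 2. Under that reading the 4 genes with the lowest p over both lines, PAGE5, XAGE1B, GAGE12F and MAEL, were above 0 on all 4 arrays. They were ranked under the same reading, which favours genes whose signs agree under it. PAGE5, a cancer-testis gene, had log2 ratios of 3.10 and 3.31 on the DLD-1 arrays and of 3.84 and 2.90 on those of HT-29. Each main result is given again with the labels' channel order, which turns the sign of both array 2 values (for related genes outside the 34, as counts and for the genes singled out). Across 8465 genes the log2 ratios of the 2 arrays of a line had a Pearson r of −0.13 for DLD-1 and −0.12 for HT-29, against 0.31 between both array 1 hybridisations and 0.20 between both array 2 hybridisations. The median background-subtracted signal per array was 713 to 2866 in treated channels and 581 to 2338 in untreated channels. Log2 ratios are given after loess correction and can differ from the ratio of these signals. Of 12 markers of colorectal epithelial cells, 10 were above background in all 8 channels, and CDX1 and LGALS4 were in 2 and 5. Markers of other cell types were also above background: the leukocyte gene CD3E, the macrophage gene CD68, and the fibroblast genes COL1A1 and DCN were in all 8 channels, while CDH5 of endothelium and LUM of fibroblasts were in 0. Being above background therefore did not separate the cell types these lines should and should not hold, and detection of an enzyme gene below is given with that limit.

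Most of the enzyme genes gave signal in both lines, with and without the drug. A channel counted as above background where a probe's intensity exceeded its local background by more than 2 background SD. By that measure 16 of the 34 genes were above background in all 8 channels (treated and untreated RNA on 4 arrays), 17 in some, and 1, the H3K27 methyltransferase EZH1, in 0. Array by array, at least 1 channel was above background for 30 and 33 of the 34 genes in DLD-1 and for 29 and 28 in HT-29. These were 88.2% and 97.1% of the genes in DLD-1, and 85.3% and 82.4% in HT-29, where all named genes stood at 80.4%, 90.6%, 86.9% and 85.5% in the same order of arrays. A gene counted as switched on where both treated channels of a line were above background and neither untreated channel was, and as switched off in the reverse case. With channel 2 as treated, 0 of the 34 genes were switched on in DLD-1, against 0.115% of all named genes, and 0 off, against 0.287%. In HT-29, 0 were switched on, against 0.271%, and 0 off, against 0.041%. Under the labels' channel order 0 were on in DLD-1, against 1.25%, and 0 off, against 0.0492%. The same order gave 1 on in HT-29, CREBBP, against 1.21%, and 0 off, against 0.0164%.

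**Figure D1:**
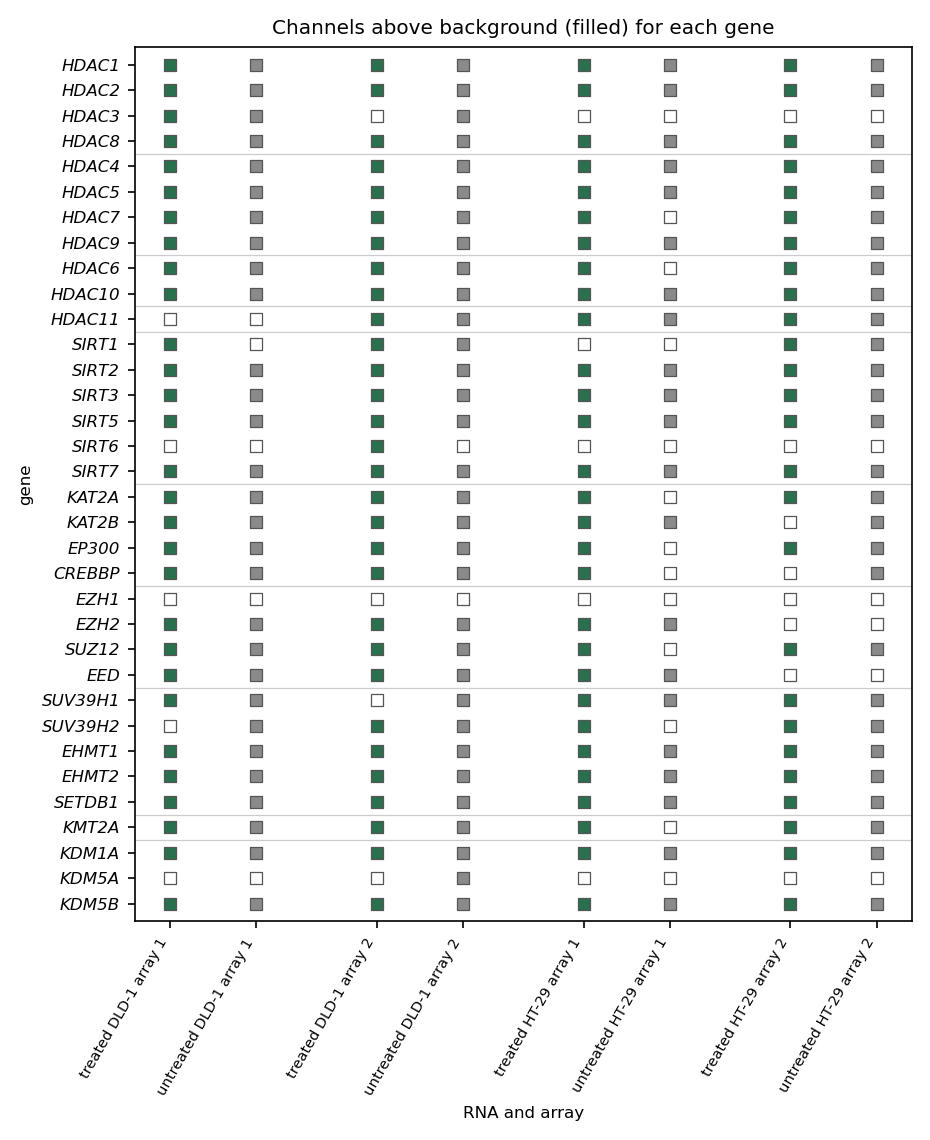
Rows are the 34 enzyme genes and columns the 8 channels, each treated channel left of the untreated channel of its array. A filled square marks a channel above background. EZH1 is empty in every column, SIRT6 and KDM5A are filled in 1, and 16 genes are filled in all 8.

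The fit over both lines kept genes with at least 1 channel above background on every array, which left 26 of the 34 enzyme genes (76.5%, against 69.4% of all named genes). The 8 left out were HDAC3, HDAC11, SIRT1, SIRT6, EZH1, EZH2, EED and KDM5A. In limma's fit of the 2 line means (treated over untreated), 0 of the 26 genes were higher and 0 lower at a Benjamini-Hochberg adjusted p of 0.05 over all 8465 genes. The shares of all genes were 0.0473% higher (4 genes) and 0% lower. Unadjusted p was under 0.05 for 2 of the 26 genes, HDAC9 and HDAC6, against 5.3% of all genes. Under the labels' channel order 0 of 26 were called, against 2.09% of all genes higher and 0.0118% lower. The unadjusted count under that order was 3 of 26, against 17.8% of all genes. With 2 line means, 0.5 is the smallest p that an exact sign-flip test (both sides counted) can give, and the limma p rests on the variance shared across genes.

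The intervals below are for the mean change over the 2 lines, with the variance shared across genes. The spread between the 2 arrays of a line does not enter them. KAT2B, for example, had 0.66 and −0.45 on the DLD-1 arrays and an interval of −0.25 to 0.35. The 95% intervals of the mean log2 ratio lay within 2-fold in either direction for 26 of 26 genes under both readings, and within 1.5-fold for 22 genes, or 21 with the labels' channel order. Over all 8465 genes about 8390 intervals lay within 2-fold, or 8320 with the labels' channel order. Lying within it was thus not particular to the enzyme genes. The outermost bounds among the 26 were −0.76 for SUV39H1 and 0.72 for KAT2A, which are 1.70-fold lower and 1.65-fold higher. Under the other order they were −0.50 for KMT2A and 0.83 for SUV39H1. The 2-fold limit did not hold under every processing: with the authors' background subtraction 22 of 26 intervals lay within it and those of HDAC8, KAT2A, EP300 and SUV39H1 did not, and the SUV39H1 mean itself was −1.32. It also failed for SUV39H1 without DLD-1 array 1, and for HDAC9, KAT2A and EP300 without HT-29 array 2. Mean log2 ratios ran from −0.34 (HDAC6) to 0.36 (HDAC9), and 22 of the 26 lay between the 5th and 95th percentile of all genes, −0.28 and 0.27. The median over the 26 genes was −0.03, against −0.00 over all genes, and with the labels' channel order 0.08 against 0.05.

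**Figure D2:**
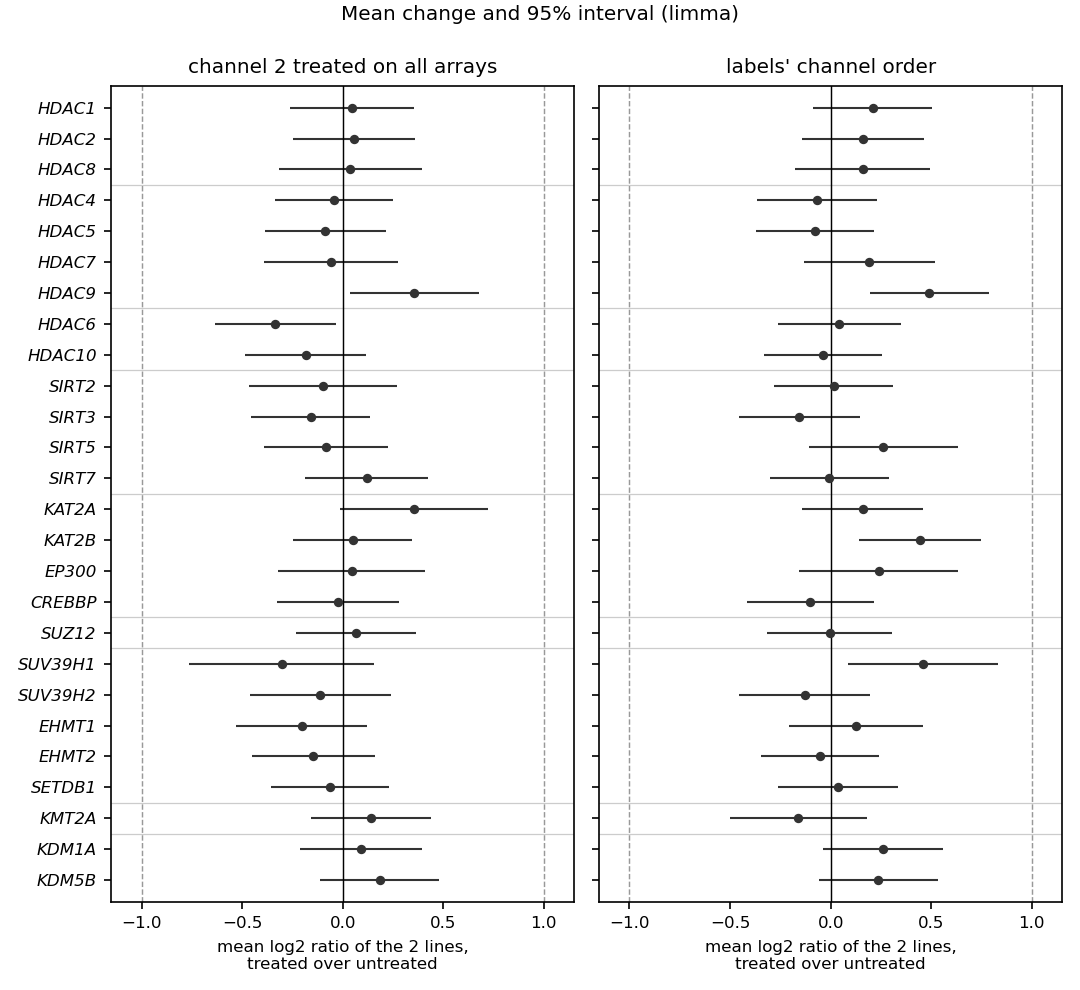
Points are the mean log2 ratio of the 2 lines, treated over untreated, for the 26 enzyme genes past the filter, and bars are limma's 95% intervals. The left panel takes channel 2 as treated on all arrays and the right panel uses the labels' channel order. In both panels every interval ends inside the dashed lines at 2-fold.

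Within a line there is no test, and size was judged on both arrays. Log2 ratios past 1.5-fold with 1 sign on both arrays were found for 0 of 30 enzyme genes in DLD-1, where all genes gave 0.421% up and 0.158% down. In HT-29 the count was 0 of 27, against 0.288% up and 0.34% down. The 2-fold counts were also 0, against 0.147% up and 0.0105% down of all genes in DLD-1, and 0.0618% up and 0.0103% down in HT-29. The labels' channel order gave 0 too. All genes then gave 1.31% up and 0.105% down in DLD-1 and 1.54% up and 0.134% down in HT-29 at 1.5-fold. At 2-fold they gave 0.0526% up and 0% down in DLD-1, and 0.155% up and 0% down in HT-29.

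Signs within a line were mixed. Both DLD-1 arrays lay above 0 for 5 of 30 enzyme genes, against 20.4% of all genes, and below 0 for 6, against 20.5%. Both HT-29 arrays lay above 0 for 5 of 27, against 20.7%, and below 0 for 10, against 22.8%. Turning the array 2 signs to the labels' order gave 10 up and 9 down in DLD-1, against 33.6% and 25.5% of all genes. It gave 11 up and 1 down in HT-29, against 33.7% and 22.8%. The median log2 ratio of the enzyme genes was −0.01 for DLD-1 and −0.03 for HT-29, and with the labels' channel order 0.04 for DLD-1 and 0.08 for HT-29. One sign on all 4 arrays was seen for KAT2A upward (1 of 26, against 4.8% of all genes). It was seen downward for HDAC6 and HDAC10 (2 of 26, against 4.89%), for HDAC10 only as the mean of its 2 probes. Under the other order it was seen for 6 of 26 upward and 0 downward, against 16.7% and 8.62% of all genes.

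**Figure D3:**
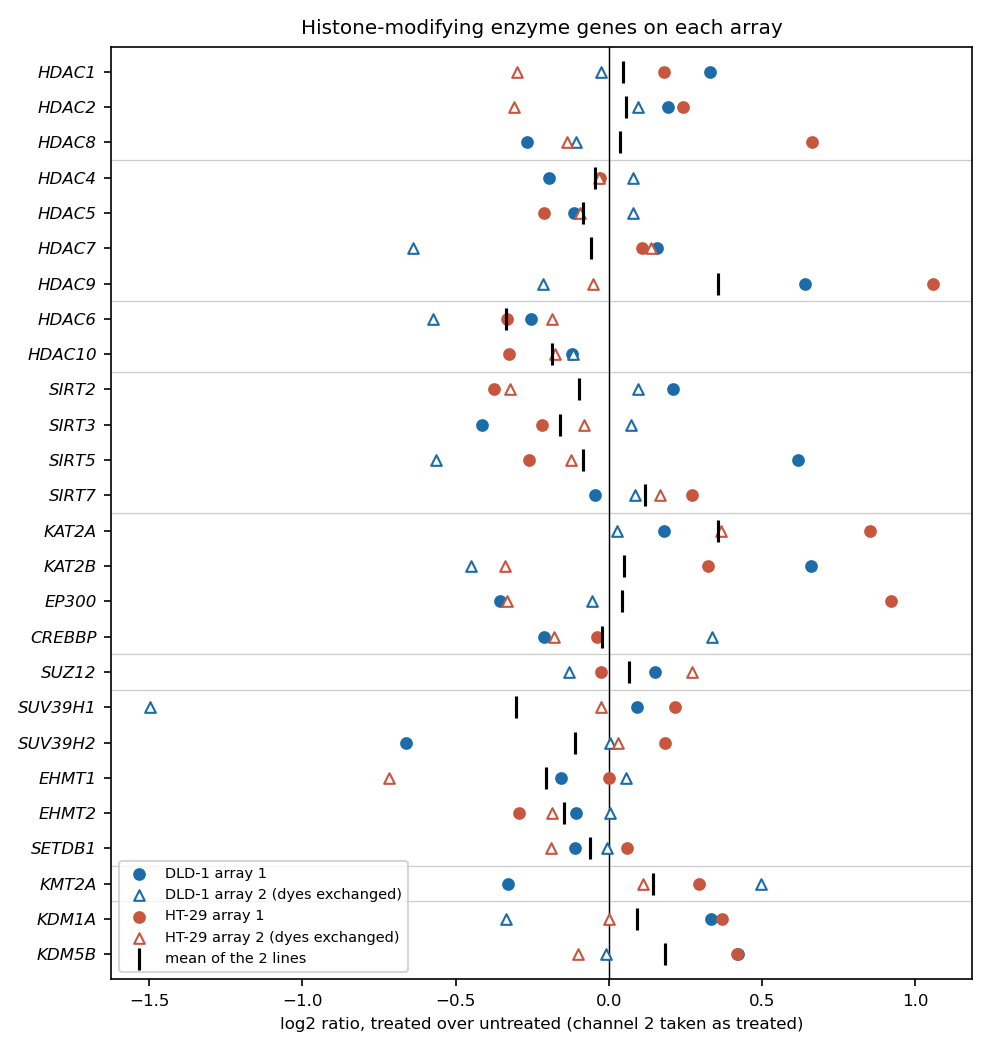
Each row is 1 of the 26 enzyme genes past the filter, grouped by class. Points are log2 ratios on the 4 arrays, with open triangles for the dye-exchanged arrays, and the bar is the mean of the 2 lines. HDAC9 and KAT2B have filled circles right of 0 and open triangles left of it, and SUV39H1 has 1 triangle at −1.50 far left of its other points.

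Among the class I deacetylases, HDAC1, HDAC2 and HDAC3 are the nuclear enzymes of the Sin3, NuRD, CoREST and NCoR corepressor complexes. Of the 4 class I genes, 3 were measured on all arrays, and their mean log2 ratios were close to 0, between 0.04 and 0.05. HDAC2, a catalytic subunit of the first 3 of these complexes, had log2 ratios of 0.19 and 0.09 on the DLD-1 arrays and of 0.24 and −0.31 on those of HT-29. Its mean was 0.05 ± 0.13 (SE over 2 lines), or 0.16 with the labels' channel order, and 3 of its 4 arrays lay above 0. HDAC1, its close paralogue, had ratios of 0.33 and −0.03 on the DLD-1 arrays, and on the HT-29 arrays of 0.18 and −0.30, so array 1 was the higher one in both lines. HDAC3, the deacetylase of the NCoR complexes, was above background in 1 treated and 2 untreated channels of DLD-1 and in 0 of HT-29, and no ratio over both lines was taken. Its DLD-1 ratios were 0.30 and −1.33, on either side of 0, and the treated channel was not above background on the second array.

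HDAC8, a class I enzyme that also deacetylates cohesin, had 2 probes that differed. In HT-29 the mean log2 ratio was 0.92 for one probe and −0.40 for the other, and in DLD-1 it was −0.06 and −0.31. On HT-29 array 1 the probe with the higher ratio had an untreated channel that was not above background, with a background-subtracted signal of 420 in the treated channel against 15.0 in the untreated one. The gene's mean of 0.04 ± 0.15 (SE) thus averaged probes of unlike sign in HT-29.

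Since the drug acts on CpG methylation, CpG dinucleotides were counted in the 300 bases from 250 before to 50 after each annotated transcription start, in RefSeq sequences of GRCh38.p14. The motif was CG, which reads the same on both strands, and the window with most CpG was used for genes with several. Of the enzyme genes, 32 of 34 matched an entry, and HDAC5 and SIRT7 had none. Their windows held a median of 35 CpG, against 16 over 27305 genes, and 29 of 32 held at least 20, against 44.7% of all genes. The 3 with fewer were HDAC8, EED and KAT2A. Methylation of these windows was not measured in the values used here. The HDAC8 window, chrX:72572794-72573093 on the minus strand, is shown because it held the fewest CpG of the 32, 9, written in capitals.
HDAC8: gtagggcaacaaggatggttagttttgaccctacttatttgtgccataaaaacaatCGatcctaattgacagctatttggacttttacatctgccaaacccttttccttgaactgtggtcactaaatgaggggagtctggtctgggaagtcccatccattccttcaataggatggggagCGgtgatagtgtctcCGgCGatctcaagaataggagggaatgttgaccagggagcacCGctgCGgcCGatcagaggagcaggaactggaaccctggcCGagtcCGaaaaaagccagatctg

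Class IIa deacetylases shuttle between nucleus and cytoplasm and hold MEF2 factors in a repressed state. All 4 were measured, with a median log2 ratio of −0.05 and 3 means below 0. HDAC9 had a mean of the same size as KAT2A, both 0.36 and the highest of the 26, from ratios of 0.64 and −0.22 on the DLD-1 arrays and of 1.06 and −0.05 on those of HT-29. The sign followed the array and not the line, with both array 1 values above 0 and both array 2 values below it. With an array left out the mean ran from 0.0793 (without HT-29 array 1) to 0.635 (without HT-29 array 2), with 0.143 and 0.571 without DLD-1 arrays 1 and 2, and with 1 loess curve per array it was 0.162. The SE over 2 lines was 0.14, with a limma unadjusted p of 0.0336 and an adjusted p of 0.866. With the labels' channel order the mean was 0.49 and all 4 arrays were above 0, with a limma adjusted p of 0.0845. Of the 2 HDAC9 probes, the platform assigns the one used to a genomic clone sequence. The other, assigned to a RefSeq mRNA, was not above background in any channel and did not enter the value. The HDAC9 ratios and its detection in all 8 channels thus rest on the genomic clone probe alone. HDAC4, HDAC5 and HDAC7 had means of −0.04, −0.09 and −0.06, and DLD-1 array 2 of HDAC7, at −0.64, was the one value in these 3 genes beyond 1.5-fold.

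Class IIb deacetylases act largely outside histones, HDAC6 on tubulin in the cytoplasm and HDAC10 on polyamines. Both had negative gene values on all 4 arrays when channel 2 was taken as treated. For HDAC10 this held only for the mean of its 2 probes, since neither probe was negative on every array. HDAC6 had log2 ratios of −0.25 and −0.57 on the DLD-1 arrays and of −0.33 and −0.19 on those of HT-29, all 4 below 0. Its mean was −0.34 ± 0.13 (SE over 2 lines), which is 1.26-fold lower, with a limma unadjusted p of 0.0336 and an adjusted p of 0.866. With the labels' channel order the mean was 0.04, with a limma adjusted p of 0.912, since 2 of the 4 signs turn. One untreated HT-29 channel, on array 1, was not above background for HDAC6. HDAC10 had ratios of −0.12 and −0.12 on the DLD-1 arrays and of −0.33 and −0.18 on those of HT-29, each the mean of 2 probes. One probe had 0.02 and −0.25 in DLD-1 and −0.01 and −0.08 in HT-29. The other had −0.26 and 0.02 in DLD-1 and −0.64 and −0.27 in HT-29. The equal DLD-1 values thus averaged probes of unlike sign on each array. The HDAC10 mean was −0.18 ± 0.13 (SE), or −0.04 with the labels' channel order, and its 2 probes had means of −0.08 and −0.29. The windows at the starts of both genes are shown because their gene values were negative on all 4 arrays. They lie at chrX:48801699-48801998 on the plus strand for HDAC6 and chr22:50251216-50251515 on the minus strand for HDAC10, with 36 and 40 CpG in capitals.
HDAC6: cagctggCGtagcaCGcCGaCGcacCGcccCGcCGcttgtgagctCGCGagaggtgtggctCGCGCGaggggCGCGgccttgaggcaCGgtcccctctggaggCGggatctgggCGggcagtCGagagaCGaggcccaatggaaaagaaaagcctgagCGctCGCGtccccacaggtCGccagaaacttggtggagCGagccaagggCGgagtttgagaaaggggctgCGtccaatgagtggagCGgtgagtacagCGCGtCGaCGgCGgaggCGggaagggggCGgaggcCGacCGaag
HDAC10: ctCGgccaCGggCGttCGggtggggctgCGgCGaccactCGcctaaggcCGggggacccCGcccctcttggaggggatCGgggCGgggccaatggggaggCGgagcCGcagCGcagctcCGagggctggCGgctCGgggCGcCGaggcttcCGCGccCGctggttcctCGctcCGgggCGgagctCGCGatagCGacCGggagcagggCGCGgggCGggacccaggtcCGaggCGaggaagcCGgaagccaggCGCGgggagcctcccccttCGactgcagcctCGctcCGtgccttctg

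HDAC11, the single class IV deacetylase, was above background on 3 of 4 arrays, in both channels of each. On DLD-1 array 1 neither channel was. In HT-29 its log2 ratios were 0.04 and −0.12, on either side of 0.

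Sirtuins are deacylases that use NAD+, with SIRT1, SIRT6 and SIRT7 in the nucleus, SIRT2 mainly in the cytoplasm, and SIRT3 and SIRT5 in mitochondria. Of the 6 genes, 4 were measured on all arrays, with a median log2 ratio of −0.09. SIRT2 had ratios of 0.21 and 0.09 on the DLD-1 arrays and of −0.37 and −0.32 on those of HT-29, so the arrays of the 2 lines did not overlap and lay on opposite sides of 0. It was the one gene of 26 with this pattern, against 8.22% of all genes; under the labels' channel order it was 1 of 26 again (SUZ12), against 9.77%. SIRT3 had ratios of −0.41 and 0.07 on the DLD-1 arrays and of −0.22 and −0.08 on those of HT-29, 3 of 4 below 0. Its mean was −0.16 ± 0.12 (SE), with a limma adjusted p of 0.908, and also −0.16 with the labels' channel order. SIRT5 had ratios of 0.62 and −0.57 on the DLD-1 arrays, the widest spread of any sirtuin, and of −0.26 and −0.12 in HT-29. SIRT7 averaged 0.12 ± 0.13 (SE), with 3 of 4 arrays above 0. SIRT1, which deacetylates p53 as well as histones, was above background in 5 of 8 channels and had DLD-1 ratios of 0.18 and 0.12. SIRT6 was above background in 1 of 8, and no ratio was taken.

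Acetyltransferases include KAT2A and KAT2B, the paralogous catalytic subunits of the SAGA and ATAC coactivator complexes, and EP300 and CREBBP, the broad coactivators that acetylate H3K27. All 4 were measured, with a median log2 ratio of 0.05. KAT2A had ratios of 0.18 and 0.03 on the DLD-1 arrays and of 0.85 and 0.37 on those of HT-29, above 0 on every array and higher in HT-29 than in DLD-1. Its background-subtracted signals in HT-29 were 373 and 1704 in treated RNA, against 49.0 and 937 in untreated RNA, of which the 49.0 was not above background. Its mean was 0.36 ± 0.16 (SE over 2 lines), 0.10 in DLD-1 and 0.61 in HT-29, with a limma adjusted p of 0.878. It was 0.235 without HT-29 array 1, 0.388 with 1 loess curve per array and 0.731 with the authors' background subtraction. With the labels' channel order the mean was 0.16, with a limma adjusted p of 0.602. The window at its start, chr17:42121318-42121617 on the minus strand, is shown as that of the one gene with a positive sign on all 4 arrays. It held 18 CpG, in capitals.
KAT2A: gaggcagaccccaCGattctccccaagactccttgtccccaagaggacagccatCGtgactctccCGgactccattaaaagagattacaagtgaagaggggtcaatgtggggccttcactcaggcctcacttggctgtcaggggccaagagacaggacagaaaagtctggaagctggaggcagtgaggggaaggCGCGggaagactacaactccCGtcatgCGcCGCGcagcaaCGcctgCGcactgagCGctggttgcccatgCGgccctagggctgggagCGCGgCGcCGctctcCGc

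KAT2B had log2 ratios of 0.66 and −0.45 on the DLD-1 arrays and of 0.32 and −0.34 on those of HT-29, so its sign followed the array in both lines. Its mean was 0.05 ± 0.13 (SE), and 0.44 with the labels' channel order, with a limma adjusted p of 0.121. EP300 had 1 value past 1.5-fold, 0.92 on HT-29 array 1, where its untreated channel was not above background, and −0.33 on the other HT-29 array. CREBBP averaged −0.02 ± 0.13 (SE), with 3 of 4 arrays below 0. In HT-29 each array had 1 CREBBP channel above background, the treated one on array 1 and the untreated one on array 2.

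Polycomb repressive complex 2 methylates H3K27 through EZH2 or EZH1, with SUZ12 and EED as core subunits. Only SUZ12 passed the filter on all arrays. SUZ12 had log2 ratios of 0.15 and −0.13 on the DLD-1 arrays and of −0.02 and 0.27 on those of HT-29, with no shared sign in either line. Its mean was 0.07 ± 0.13 (SE), and −0.00 with the labels' channel order. On HT-29 array 1 the untreated SUZ12 channel was not above background. EZH2 was above background in both channels of both DLD-1 arrays, with ratios of 0.62 and 0.29, and its DLD-1 mean of 0.46 was the highest of the 30 genes measured in that line. On HT-29 array 2 neither EZH2 channel was above background. EED was above background in the same 6 channels, and its DLD-1 ratios were −0.74 and −0.08. In DLD-1 the 2 subunits thus lay on opposite sides of 0, with no test within a line.

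The H3K9 methyltransferases are SUV39H1 and SUV39H2, which trimethylate heterochromatin, EHMT1 and EHMT2, which mono- and dimethylate euchromatin as a heterodimer, and SETDB1, which acts with TRIM28. All 5 were measured and all 5 means were below 0, from −0.30 to −0.06, with 0 called. Read in the labels' channel order, 2 were below 0 and 3 above. SUV39H1 had log2 ratios of 0.09 and −1.50 on the DLD-1 arrays and of 0.21 and −0.03 on those of HT-29, so that 1 array set its mean of −0.30 ± 0.19 (SE). On that array, DLD-1 array 2, the treated channel was not above background and the untreated channel had a background-subtracted signal of 351. Without it the mean was 0.0929, without DLD-1 array 1 it was −0.701, with the authors' background subtraction −1.32, and with the labels' channel order 0.46 with a limma adjusted p of 0.187. EHMT1 had ratios of −0.15 and 0.06 on the DLD-1 arrays and of −0.00 and −0.72 on those of HT-29, and HT-29 array 2 lay apart from the other 3 near 0. Its mean was −0.20 ± 0.14 (SE), or 0.13 with the labels' channel order, and its second probe was not above background in any channel. EHMT2 averaged −0.15 ± 0.13 (SE) with 3 of 4 arrays below 0. SETDB1 and SUV39H2 averaged −0.06 and −0.11, and SUV39H2 had 1 low value, −0.66 on DLD-1 array 1, where its treated channel was not above background.

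KMT2A, the H3K4 methyltransferase known as MLL in leukaemia, had log2 ratios of −0.33 and 0.50 on the DLD-1 arrays and of 0.29 and 0.11 on those of HT-29. Its mean was 0.14 ± 0.13 (SE), and −0.16 with the labels' channel order. KDM1A (LSD1) removes mono- and dimethylation of H3K4 within the CoREST complex, and KDM5A and KDM5B remove its di- and trimethylation. KDM5B had ratios of 0.42 and −0.01 on the DLD-1 arrays and of 0.42 and −0.10 on those of HT-29, near-equal on the array 1 pair and near 0 on the array 2 pair. Its mean was 0.18 ± 0.12 (SE), with a limma adjusted p of 0.901, and 0.24 with the labels' channel order. KDM1A had ratios of 0.33 and −0.34 on the DLD-1 arrays and of 0.37 and −0.00 on those of HT-29, with array 1 the higher in both lines, and its mean was 0.09 ± 0.13 (SE). With the labels' channel order the KDM1A mean was 0.26 and all 4 arrays lay above 0. KDM5A was above background in 1 of 8 channels.

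A second comparison, of HT-29 with DLD-1, used the mean log2 signal of both channels of each spot, which does not depend on which channel held treated RNA. It was made after quantile normalization of that mean between arrays, and each line counted as 1 replicate, so it has no p. A gene was counted where the line means differed by at least 2-fold and the arrays of the lines did not overlap. HT-29 was higher for 1 of 26 enzyme genes, against 4.52% of all genes, and lower for 3 of 26, against 9.55%. The median difference, HT-29 minus DLD-1, was −0.37 over the 26 genes and −0.17 over all genes. Arrays of the 2 lines overlapped for 18 of 26 genes, against 67.4% of all genes. The difference between the 2 arrays of a line had an SD across all genes of 1.32 in HT-29 and 0.91 in DLD-1 (log2 units).

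HDAC2 had average log2 signals of 10.09 and 10.41 on the HT-29 arrays, against 12.25 and 12.06 on the DLD-1 arrays, a level 3.74-fold higher in DLD-1. KDM1A had 10.62 and 9.47 in HT-29, against 11.89 and 11.96 in DLD-1, which was 3.67-fold higher in DLD-1 and rests on 1 probe. The signals of another probe, which KDM1A shares with other genes, overlapped between the lines (see Other observations). HDAC1, HDAC2 and KDM1A are catalytic subunits of CoREST, and only the last 2 were lower on each HT-29 array than on either DLD-1 array. HDAC1 had 11.91 and 9.69 in HT-29, against 11.31 and 10.83 in DLD-1, so its arrays overlapped between the lines. SUZ12 had 9.34 and 10.61 in HT-29, against 10.89 and 11.49 in DLD-1, 2.32-fold higher in DLD-1, and its brighter HT-29 array came close to its dimmer DLD-1 array. The 9.34 averages in an untreated channel that was not above background. Without that array the SUZ12 fold was 1.49, and without the other HT-29 array 3.60. SUV39H1 was the one gene with a higher HT-29 level, at 11.94 and 11.69 in HT-29 against 10.64 and 8.17 in DLD-1, or 5.30-fold as measured. The 8.17 averages in a treated channel that was not above background, so 3 of the 4 DLD-1 channels measured the gene. Without that array the fold was 2.25, and without the other DLD-1 array 12.5. With the authors' background subtraction it was 20.4. The 2 DLD-1 arrays of SUV39H1 differed by 2.47 log2 units from each other, more than the gap between the means of the lines. HDAC2 and KDM1A were counted under the main setting and all 10 alternatives, and SUV39H1 under the main setting and all but the filter that asked for both channels above background. SUZ12 dropped out under that filter, and where either array 2 of DLD-1 or array 1 of HT-29 was left out. At a size of 1.5-fold, HT-29 was higher for 1 of 26 genes, against 8.33% of all genes, and lower for 7, against 17.5%. The added genes were HDAC5, SIRT5, CREBBP and SETDB1, and SETDB1 had 11.46 and 11.14 in HT-29, against 12.20 and 12.14 in DLD-1.

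**Figure D4:**
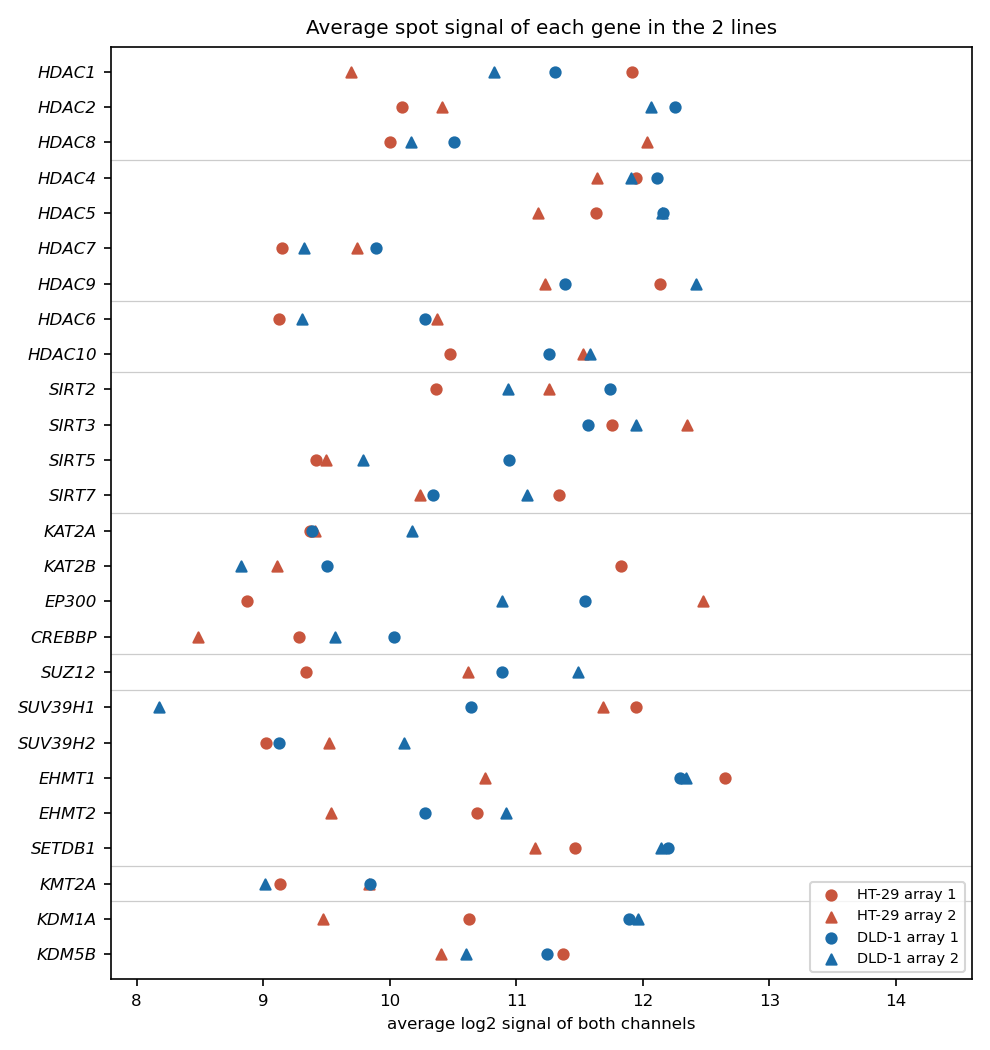
Points are the average log2 signal of both channels on each array for the 26 enzyme genes, HT-29 in red and DLD-1 in blue, circles for array 1 and triangles for array 2. Levels may be compared along a row and not between rows. HDAC2 and KDM1A have both red points left of both blue ones, and SUV39H1 has them right.

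Other genes of the same machinery were examined as 5 lists, and with channel 2 as treated 0 of their 75 tested genes were called in limma's fit in either direction. Under the labels' channel order 3 of 75 were called higher, against 2.09% of all genes, and 0 lower. These were the H3K36 methyltransferase NSD2 at a mean of 0.63 (limma adjusted p 0.0463), GPS2 of the NCoR complex at 0.64 (0.0450) and PCGF2 of Polycomb complex 1 at 0.64 (0.0492). The means that follow take channel 2 as treated. Of the other histone acetyltransferases 10 were tested, with a median log2 ratio of −0.09; KAT8, which acetylates H4K16, had the mean farthest from 0, −0.44, and HAT1, which acetylates newly made H4, −0.19. Of the other methyltransferases 26 were tested, with a median of 0.00; PRMT1, the main arginine methyltransferase, stood at −0.53 and KMT5B, an H4K20 methyltransferase, at 0.28. The 9 demethylases had a median of 0.04, with PHF8 at 0.32 and the H3K27 demethylase KDM6A at 0.09. The 16 corepressor partners of the deacetylases had a median of −0.01, with SAP30 of the Sin3 complex at −0.24 and the histone chaperone RBBP7 at −0.19. The 14 Polycomb and HP1 partners had a median of −0.02, with PHC1, a Polycomb complex 1 subunit, at −0.36 and PHF19 at −0.26. PHC1 had a limma unadjusted p of 0.0402 and an adjusted p of 0.878, and was the 1 gene of 75 with an unadjusted p under 0.05, against 5.3% of all genes. Under the labels' channel order 18 of 75 had one, against 17.8%, and PHC1, at 0.12, did not. That order gave 0.27 for KAT8, 0.48 for PRMT1, 0.11 for HAT1, 0.02 for SAP30 and 0.19 for RBBP7, all with the sign turned. It gave 0.38 for KMT5B, 0.03 for PHF8, 0.06 for KDM6A and −0.16 for PHF19, with the sign kept. KAT8 and PRMT1 each had 1 array far from the rest, DLD-1 array 2, at −1.66 and −1.65.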

How the data were processed

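Total RNA was extracted with TriZol, amplified as amino allyl aRNA and coupled to Cy3 or Cy5, per the labels. For 30336 spots in 48 printed blocks, the deposited scanner files list each channel's spot intensity with the mean and SD of its local background. The deposited series table holds the authors' log2 ratios of channel 2 over channel 1, not turned for the dye exchange; its values were an alternative. The sources used here name no scanner or scanner software. Methylation-specific PCR was not analysed here.

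Ratios were recomputed with limma 3.58.1 under R 4.3.3. Correction for background used normexp (offset 50) on spot intensity and local background, and 1 loess curve per printed block was fitted (span 0.3, 4 iterations), with no weight for controls and spots marked bad. Position in the blocks accounted for 23.2% to 49.7% of the variance of the log2 ratios after 1 curve per array. A gene's value is the mean of its probes past the filter of 2 background SD. Of the probes, 14200 had 1 platform symbol, 447 several and 14993 none; names were updated through GRCh38.p14. Each line's 2 arrays were averaged. The test against 0 was limma's moderated one (lmFit, then eBayes) on both line means, with p-values adjusted by Benjamini-Hochberg across 8465 genes. The steps were also run on simulated arrays with the log2 ratios shuffled within each array, which does not keep the correlations between arrays. That run is not used here to say which sizes of change could be called. Each array compares its own treated and untreated RNA, and the number of arrays limits the precision.

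The genes, the lists of related genes and the reading of channel 2 as treated were chosen with earlier results of these data known. Values on each array were given for the 8 genes with the largest mean log2 ratio, those with 1 sign on 4 arrays, those past 1.5-fold on both arrays of a line, and those that differed between the lines; others are given in the text to account for every gene, and were chosen after their values were seen. Of related lists, the 2 genes with the largest mean in size are named. Alternatives covered the channel order, normalization, background, filter, deposited ratios, 4 arrays as separate values, and each array left out.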

Additional observations from a re-analysis of the deposited data

Results flagged for a closer look

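SIRT2 had log2 ratios of opposite sign in the 2 lines on all arrays, −0.37 and −0.32 in HT-29 and 0.21 and 0.09 in DLD-1. The HT-29 mean minus the DLD-1 mean was −0.5. The difference between the lines was not tested, since each line is 1 replicate. The pattern was seen in 1 of 26 enzyme genes and in 8.22% of all genes. With the labels' channel order SIRT2 lost it, and 1 of 26 genes showed it, against 9.77% of all genes. That gene was SUZ12, with means of −0.15 in HT-29 and 0.14 in DLD-1.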

How the results depend on the processing

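In limma's fit 0 enzyme genes were called under the main setting and under all 14 alternatives, while the count over all genes moved from 4 to 178 with the labels' channel order, 20 with 1 loess curve per array, 2 with block medians set to 0 after that curve, 16 with median centring, 9 in the deposited table (16 enzyme genes tested), 0 with plain background subtraction, 1 with both channels above background, 1 with no filter, 1 with 4 arrays as separate values, and 0 to 2 with an array left out. Of 146 recomputed means of 11 genes, 130 kept their sign, and the lowest adjusted p was 0.0845 (HDAC9, labels' channel order). Signs turned with the labels' channel order for HDAC6 (0.0433), SUV39H1 (0.457), EHMT1 (0.126) and SUZ12 (−0.00437). They turned with 1 loess curve for SIRT3 (0.0439), HDAC2 (−0.0268) and KDM1A (−0.059), with median centring for SIRT3 (0.00144) and KDM1A (−0.0457), and in the deposited table for KDM1A (−0.027). They turned without DLD-1 array 1 for SUZ12 (−0.0028) and KDM1A (−0.076), without DLD-1 array 2 for SUV39H1 (0.0929), without HT-29 array 1 for HDAC2 (−0.0829) and KDM1A (−0.00075), and without HT-29 array 2 for SUZ12 (−0.00717). With an array left out, the means ran from −0.701 to 0.0929 for SUV39H1, −0.0829 to 0.192 for HDAC2, −0.00717 to 0.141 for SUZ12 and −0.076 to 0.259 for KDM1A. With the authors' background subtraction the mean was −1.32 for SUV39H1 and 0.731 for KAT2A. The median over both lines became 0.0848 with the labels' channel order. The DLD-1 median became 0.0403 with that order, −0.0833 with 1 loess curve, −0.047 with block medians set to 0 and −0.0598 with median centring, and −0.00922 to 0.0222 with an array left out. The HT-29 median, −0.0303, changed sign with the labels' channel order (0.0798), 1 loess curve (0.0408), block medians set to 0 (0.0106), median centring (0.0883) and without HT-29 array 2 (0.0575), and was −0.121 without array 1; the median over both lines also turned with median centring (0.00655). In an alternative added after the values were seen, 95% intervals within 2-fold numbered 22 of 26 with the authors' background subtraction, 16 of 16 tested with both channels above background and in the deposited table, and 25 to 27 with an array left out. Over all genes they numbered about 7500, 6430, 6250 and 8320 to 8820 in the same order of settings. Genes past 1.5-fold in DLD-1 numbered 0 to 6 with an array left out, 4 without DLD-1 array 1 and 6 without array 2. In HT-29 they numbered 1 with median centring and 0 to 4 with an array left out, 1 without HT-29 array 1 and 4 without array 2. Genes with 1 sign on every array numbered 6 with the labels' channel order, 1 with both channels above background, and 4 to 10 with an array left out. Apart from the labels' channel order, these 1.5-fold and 1-sign counts were not taken over all genes. They thus cannot show whether the enzyme genes differed from other genes. Genes that differed between the lines numbered 7 with no filter, 8 at 1.5-fold, and 5 to 11 with an array left out. Over all genes the counts were 2090, 2190 and 1894 to 3325, against 1191 in the main setting. Causes were not tested, except that leaving out an array leaves fewer values to share a sign. Each log2 ratio already pairs the treated and untreated RNA of 1 array. No further pairing of arrays was possible because the labels give no replicate numbers and each line is 1 replicate.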

Other observations

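A pair of probes carried several gene symbols, 1 of them an enzyme gene, and were left out of the values above. The probe shared by KDM1A, TEX46 and LUZP1 had log2 ratios of 0.07 and 0.16 in DLD-1 and of 0.15 and 0.37 in HT-29. Its background-subtracted signals, not normalized between arrays, overlapped between the lines. In treated RNA they were 5347 and 1358 in DLD-1 and 2012 and 5371 in HT-29. In untreated RNA they were 4091 and 1561 in DLD-1 and 1441 and 2278 in HT-29. The probe shared by SIRT6 and ANKRD24 had −0.11 and 0.14 in DLD-1 and 0.42 and −0.06 in HT-29.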
